A study of Mus musculus with 18 samples.

Results

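Hspb8, Hspb1, Hspb2, Hspb6, Cryab and Bag3 encode 5 small heat shock proteins and the co-chaperone that works with them. They were taken by symbol from a table of read counts per gene, and all 6 were found among its 27179 genes. Hspb8 was chosen by its own measured difference: its counts had already been seen to be higher in knockout luminal progenitors and not in knockout basal cells of these mice, and the set was put together with that in view. The study was a bulk RNA-seq experiment on mouse mammary epithelium. Luminal progenitor (LP), mature luminal (ML) and basal cells were isolated by flow cytometry from 3 female knockout (KO) mice and 3 female wild-type (WT) mice, all 14 weeks old. Each mouse gave 1 library of each population, so 18 libraries fell into 6 groups of 3.

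The KO mice combined the Cre transgene MMTV-cre(T/+) with Brca2(delta/delta) and with Trp53(delta/+). Cre recombinase was thus driven by the mouse mammary tumour virus promoter, which is active mainly in mammary epithelium, and both Brca2 alleles and 1 Trp53 allele were deleted where Cre had acted. The controls were described as wild type, but libraries of either genotype carry one strain entry, MMTVcre Brca2(fl/fl) Trp53(fl/+), and the titles call the KO a knockdown. The labels do not say whether the WT mice carried the Cre transgene or floxed alleles, so Cre, Brca2 loss and Trp53 loss cannot be told apart as parts of the KO group. Trp53 had 8.0 ± 0.934 CPM (counts scaled to the library total) in LP KO and 96.7 ± 46.5 CPM in LP WT (SD, n = 3 each). Its level also fell to 15.2 ± 1.72 CPM in ML KO, against 45.3 ± 5.09 CPM in ML WT, and to 22.7 ± 11.6 CPM in basal KO, against 74.9 ± 16.2 CPM in basal WT, with adjusted p at or under 0.00592 in edgeR's quasi-likelihood test in all 3 populations. The Trp53 falls were 12.1-fold in LP, 2.98-fold in ML and 3.29-fold in basal cells. Each is larger than the loss of 1 allele would give if both alleles contributed equally, and the cause was not tested. Brca2 counts, taken over the whole gene, overlapped between KO and WT in every population, and a deletion of part of the gene need not change them.

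Small heat shock proteins are chaperones that need no ATP. They share an alpha-crystallin domain, assemble into oligomers and hold unfolding proteins until other chaperones can refold or degrade them. BAG3 binds both the small heat shock protein HSPB8 and the ATP-driven HSP70 chaperones, and through adaptors such as p62 it passes damaged proteins, among them filamin in contractile cells, to autophagy (chaperone-assisted selective autophagy). Several of these genes are targets of the heat shock factor HSF1, which binds repeats of the unit NGAAN, and several are known for high levels in muscle. Basal mammary cells are contractile and share many smooth muscle genes.

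The starts of the genes are shown because pairs of the NGAAN unit are short enough to be read directly. Windows from 250 bases before to 50 bases after each annotated start were taken from RefSeq (build GRCm38.p6) and matched 4 of the 6 genes. The motifs searched were GAANNTTC and TTCNNGAA. Each is its own reverse complement, so both strands were covered, and the 2 motifs can overlap in an array of 3 units. Capitals mark the matches. Positions count from the annotated start, with the first transcribed base as 1.
Hspb8, chr5:116422844-116422873, minus strand, match starting at base 3: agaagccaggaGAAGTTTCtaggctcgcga
Hspb1, chr5:135887791-135887820, plus strand, match starting 117 bases before the start: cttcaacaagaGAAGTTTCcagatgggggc
Hspb6, its second annotated start, chr7:30553170-30553199, plus strand, match starting 120 bases before the start: aagtaattattGAAGTTTCtaaataaggaa
Bag3, chr7:128523603-128523632, plus strand, match starting at base 43: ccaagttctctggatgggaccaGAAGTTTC

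The 4 matches printed are the same 8 letters, GAAGTTTC, because the windows were cut around that string. Of the 32851 such windows in RefSeq, 7.86% held GAANNTTC and 8.52% held TTCNNGAA. GAAGTTTC or its reverse complement was in 1.21% of them, a motif spelled out only after the matches were seen. Hspb1 held a second match, GAACCTTC, 97 bases before its start. Neither motif was in the 250 bases before the first annotated Hspb6 start or before the Bag3 start. The 250 bases before the Hspb8 start held neither motif:
Hspb8, chr5:116422865-116423114, minus strand: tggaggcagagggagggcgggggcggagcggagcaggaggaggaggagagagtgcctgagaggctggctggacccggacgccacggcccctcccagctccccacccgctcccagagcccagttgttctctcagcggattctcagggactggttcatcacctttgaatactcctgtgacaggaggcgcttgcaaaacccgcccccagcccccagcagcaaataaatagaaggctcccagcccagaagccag
A match is a string of letters and not a measured binding site.

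Hspb8 lies on chromosome 5 (116408491 to 116422864), as does Hspb1 (135887919 to 135889563). Bag3 (128523583 to 128546981) and Hspb6 (30552535 to 30555443) lie on chromosome 7. Cryab (50745951 to 50756636) and Hspb2 (50751072 to 50752354) lie together on chromosome 9, where 252 bases of their exons overlap on opposite strands in the GENCODE M21 annotation. That is 30.2% of the Hspb2 exons and 17.0% of the Cryab exons. The library kit does not keep strand, so reads from that stretch cannot be assigned to one gene or the other, and the Hspb2 values are uncertain for that reason. Of the Hspb6 exons, 122 bases (5.3%) overlap Proser3 on the other strand.

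Library totals ran from 5.97 to 39.19 M counts. The LP KO libraries were deeper (22.42 to 32.72 M) than the LP WT libraries (9.29 to 16.17 M), with no overlap. All 6 genes passed the filter on low counts, which left 16466 genes. Hspb2 was close to the limit of the depth, with 213 counts summed over the LP KO libraries and 16 to 65 over each other group. Levels above and below are CPM scaled by library size factors (TMM), with SD and n = 3 mice unless a single mouse is named. In sorted bulk RNA, a change in which cells passed the gate and a change in RNA per cell cannot be told apart.

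**Figure D1:**
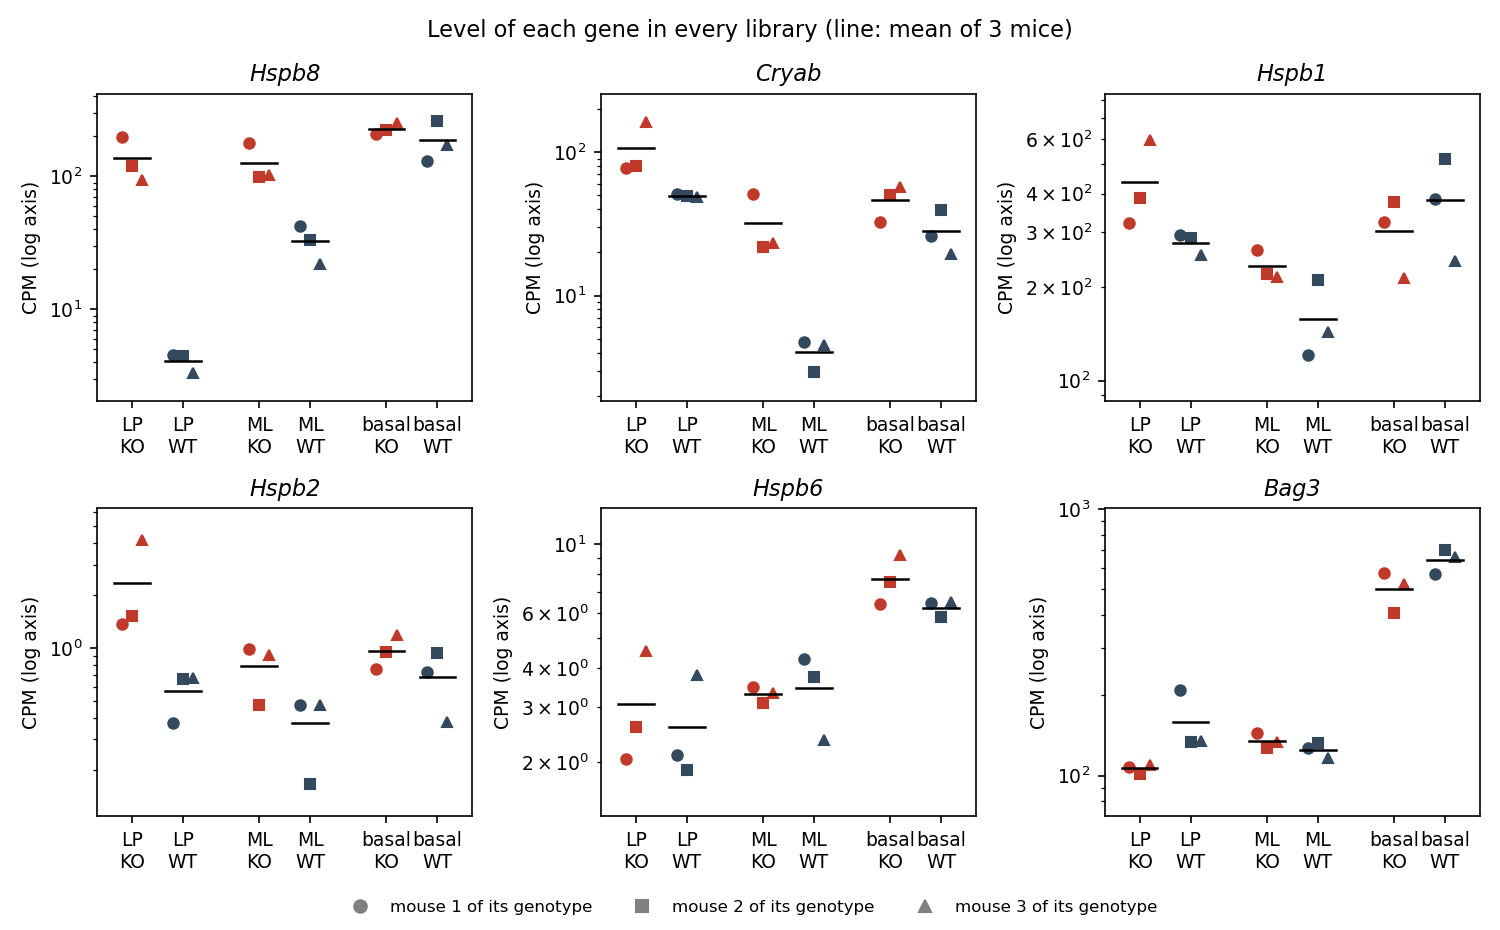
CPM of the 6 genes in each of the 18 libraries, on a log axis, with KO (red) left of WT (blue) in each population, a marker shape for each mouse and a line at the mean of 3 mice. Hspb8 in LP stands apart, with 94.2 to 197 CPM in KO and 3.31 to 4.56 CPM in WT, while Bag3 is highest in basal cells of both genotypes.

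Hspb8, the partner that BAG3 carries to its clients, was the gene with the widest range. It was at 197, 120 and 94.2 CPM in the 3 LP KO mice and at 4.56, 4.45 and 3.31 CPM in the 3 LP WT mice. The lowest KO library was more than an order of magnitude above the highest WT library. These are the values for which the gene was chosen, and they are given without a test: the log2 fold change was 5.07 (SE 0.39), 33.6-fold. It moved between 4.72 and 5.28 over 15 other ways of processing the data, with 5.18 when every library was thinned to the smallest total.

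In ML cells, which played no part in the choice, Hspb8 was at 177, 99.8 and 102 CPM in KO and 42.3, 33.1 and 22.1 CPM in WT. Every KO library was above every WT library. The log2 fold change was 1.96 (SE 0.33), 3.90-fold, with an adjusted p of 0.000332 in edgeR's quasi-likelihood test. Leaving out KO mouse 1, the highest, gave 1.65 with an adjusted p of 0.00227. The ML libraries come from the same mice as the LP libraries and are not a second set of animals.

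In basal cells the genotypes overlapped. Hspb8 was at 209, 223 and 252 CPM in basal KO and 130, 260 and 172 CPM in basal WT, a log2 fold change of 0.28 (SE 0.31). Put in order, LP (137 ± 53.5 CPM) and ML (126 ± 43.6 CPM) overlapped in KO mice, and both lay below basal (228 ± 22.0 CPM). The WT levels ran from LP (4.11 ± 0.693 CPM) through ML (32.5 ± 10.1 CPM) to basal (188 ± 66.3 CPM), with no overlap between neighbours. LP therefore held 60.1% of the basal level in KO mice and 2.19% of it in WT mice. KO mouse 1 had the highest Hspb8 of the KO mice in LP and in ML and the lowest in basal cells.

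Markers of the sorts were measured beside these values. Krt5 and Krt14, keratins of basal cells, stood in LP KO at 0.232% and 0.957% of their basal KO levels. Acta2 stood at 0.161% and Trp63, a transcription factor of basal cells, at 1.13%. Hspb8 stood at 60.1%, from the LP values for which it was chosen. Of 6 basal markers, 1 rose, 1 fell and 4 did not pass in LP KO, where 13.2% of all genes passed in either direction. The one that rose was Krt14 (34.7 ± 15.9 CPM in LP KO, against 12.6 ± 7.04 CPM in LP WT, adjusted p = 0.0457, edgeR), a call lost in 8 of 15 alternatives, among them those without LP KO mouse 1 or 3 or LP WT mouse 1 or 2. Oxtr, the oxytocin receptor, fell to 3.62 ± 1.37 CPM in LP KO, against 18.5 ± 10.4 CPM in LP WT (adjusted p = 0.00816, edgeR), and was called in all 15. The summed level of the 6 was 40.5 to 85.4 CPM in LP KO and 31.0 to 63.8 CPM in LP WT, which overlap. The 4 ML markers summed to 68.8 to 254 CPM in LP KO and 490 to 690 CPM in LP WT, and 3 of them fell (edgeR). In ML cells the basal sum was 461 to 529 CPM in KO and 13.2 to 15.3 CPM in WT, and 5 of the 6 markers rose (edgeR). Over all genes, 12.5% passed higher in ML KO. As shares of their basal KO levels, Hspb8 in ML KO was at 55.4%, Krt5 at 9.70%, Krt14 at 7.24%, Acta2 at 0.584% and Trp63 at 12.4%. The 4 LP markers also rose in ML KO (edgeR; Aldh1a3 and Cd14 not without ML KO mouse 1 or ML WT mouse 2, nor Cd14 without ML WT mouse 1), with a sum of 258 to 639 CPM in ML KO and 51.6 to 68.3 CPM in ML WT. The 4 ML markers summed to 653 to 3157 CPM in ML KO and 5520 to 6605 CPM in ML WT, and ML KO mouse 1 was the library at 653 CPM. In basal cells 0 of the 6 basal and 0 of the 4 ML markers were called (edgeR). Of the 4 LP markers 1 was called, against 2.54% of all genes. It was Kit, at 13.6 ± 6.74 CPM in basal KO and 2.16 ± 0.738 CPM in basal WT (adjusted p = 0.00054, edgeR), called in all 15 alternatives. The LP markers summed to 27.4 to 59.3 CPM in basal KO and 21.8 to 25.1 CPM in basal WT. The part that these markers' cells have in the LP, ML and basal values was not tested.

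**Figure D2:**
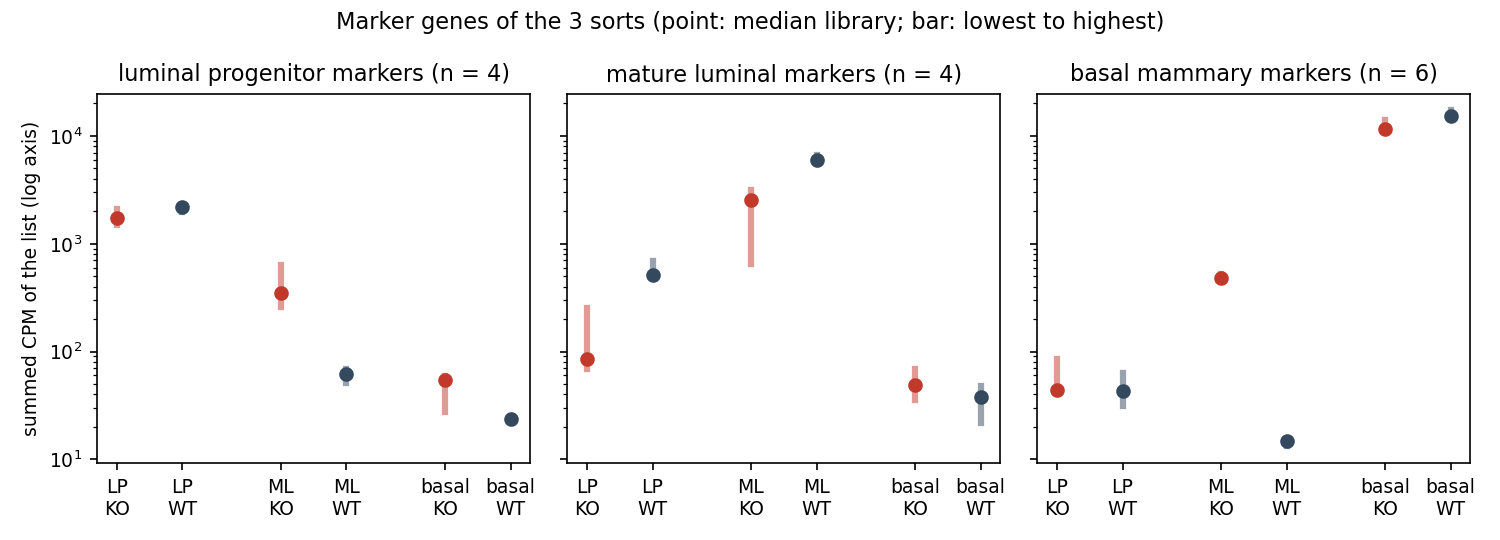
Summed CPM of 4 luminal progenitor, 4 mature luminal and 6 basal markers in each group, on a log axis, with a point at the median library and a bar from the lowest to the highest. Basal markers in LP KO lie at 40.5 to 85.4 CPM, near the LP WT range, whereas in ML KO they lie at 461 to 529 CPM, far above ML WT at 13.2 to 15.3 CPM.

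Cryab encodes alpha-B crystallin, a chaperone of the lens and of muscle that holds desmin and other filaments. Its difference was widest in ML cells, with 51.0, 21.8 and 23.4 CPM in KO and 4.75, 2.92 and 4.53 CPM in WT. The lowest KO library was above every WT library. Cryab rose in ML KO with a log2 fold change of 2.98 (SE 0.40), 7.87-fold, and an adjusted p of 3.41e-05 (edgeR). Without KO mouse 1 the value was 2.48, with an adjusted p of 0.000135. Cryab in ML KO was at 30.2% of its LP KO level, while the 4 LP markers Kit, Elf5, Aldh1a3 and Cd14 were at 36.3%, 26.3%, 29.9% and 9.55% of theirs. The part of LP-type cells in the Cryab value was not tested.

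In LP cells Cryab was at 77.2, 80.5 and 161 CPM in KO and 50.8, 49.1 and 48.9 CPM in WT. The groups did not overlap, and KO mouse 3 was far above the other two. The log2 fold change was 1.10 (SE 0.36), and 0.67 without that library. In basal cells Cryab was at 32.4, 50.3 and 56.9 CPM in KO and 26.0, 39.5 and 19.6 CPM in WT, which overlap, with a log2 fold change of 0.71 (SE 0.36).

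Hspb1 encodes HSP27, a widely expressed small heat shock protein that binds actin and partly unfolded proteins. Per base of transcript it was the most abundant of the 6 genes in every group, at 483 ± 159 RPKM (CPM per kilobase of transcript) in LP KO and 309 ± 24.8 RPKM in LP WT. In CPM it was at 322, 388 and 597 in LP KO and 295, 287 and 253 in LP WT. The KO libraries were all higher, with a log2 fold change of 0.65 (SE 0.30). In ML cells the values were 264, 221 and 215 CPM in KO and 121, 211 and 143 CPM in WT, again without overlap, but the log2 fold change of 0.56 (SE 0.30) did not pass the test (adjusted p = 0.230, edgeR). In basal cells they were 323, 375 and 214 CPM in KO and 385, 518 and 243 CPM in WT, which overlap (log2 fold change -0.33, SE 0.30).

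Hspb2, found mainly in heart and skeletal muscle, was at or under 4.12 CPM in every library. It was at 1.38, 1.53 and 4.12 CPM in LP KO and 0.370, 0.667 and 0.674 CPM in LP WT. The log2 fold change was 2.00 (SE 0.61) with all libraries and 1.32 without LP KO mouse 3. In ML cells it was at 0.992, 0.469 and 0.910 CPM in KO and 0.475, 0.167 and 0.471 CPM in WT, which overlap and gave a log2 fold change of 1.05 (SE 0.64, adjusted p = 0.300, edgeR). In basal cells it was at 0.757, 0.948 and 1.18 CPM in KO and 0.728, 0.933 and 0.377 CPM in WT.

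Hspb6 encodes HSP20, which is known for its part in smooth muscle relaxation. It was at 2.04, 2.59 and 4.55 CPM in LP KO and 2.10, 1.89 and 3.8 CPM in LP WT, which overlap. Its log2 fold changes were 0.22 (SE 0.38) in LP, -0.05 (SE 0.38, adjusted p = 0.953, edgeR) in ML and 0.31 (SE 0.37) in basal cells. Its highest levels were in basal cells, at 6.43, 7.55 and 9.23 CPM in KO and 6.44, 5.81 and 6.50 CPM in WT.

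The 4 genes with the shortest transcripts, Hspb1, Hspb2, Hspb6 and Cryab, with 840 to 1325 bases counted, were all highest in mouse 3 among the LP KO libraries. Over 2013 genes of 800 to 1400 bases, the median log2 level of that library was 0.33 above its group mean, against -0.15 and -0.19 in LP KO mice 1 and 2. The median log2 fold change of this length class was 0.35 in LP KO against LP WT, and 0.02 over all genes. Hspb8, with 1812 bases, and Bag3, with 2595 bases, are outside the class, and Hspb8 was lowest in LP KO mouse 3. The part of transcript length in the LP values was not tested.

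Bag3, the co-chaperone, had lower values in LP KO than in LP WT and overlapping ones in ML cells. It was at 108, 101 and 110 CPM in LP KO and 209, 134 and 135 CPM in LP WT, with every KO library below every WT library and a log2 fold change of -0.59 (SE 0.21). In ML cells it was at 145, 127 and 134 CPM in KO and 127, 132 and 116 CPM in WT, which overlap (log2 fold change 0.11, SE 0.21, adjusted p = 0.777, edgeR). In basal cells it was at 576, 408 and 522 CPM in KO and 570, 703 and 663 CPM in WT, with a log2 fold change of -0.36 (SE 0.21). Set against Hspb8 per base of transcript, Bag3 was at 40.9 ± 1.80 RPKM and Hspb8 at 75.5 ± 29.5 RPKM in LP KO, while in LP WT Bag3 was at 61.4 ± 16.5 RPKM and Hspb8 at 2.27 ± 0.382 RPKM. In ML KO Bag3 was at 52.0 ± 3.47 RPKM and Hspb8 at 69.7 ± 24.1 RPKM, and in ML WT Bag3 was at 48.2 ± 3.20 RPKM and Hspb8 at 17.9 ± 5.59 RPKM. Per base, the order of the 2 transcripts thus turned round between the genotypes in both luminal populations, in LP with the Hspb8 values used for the choice. In ML KO mice 1, 2 and 3, Hspb8 was at 97.5, 55.1 and 56.5 RPKM and Bag3 at 55.7, 48.8 and 51.6 RPKM. The ML order depends on the scaling by length: in CPM, Bag3 (135 ± 8.99) stayed above Hspb8 (126 ± 43.6) in ML KO. In basal cells of both genotypes Bag3 was the more abundant, at 193 ± 33.1 RPKM in KO against 126 ± 12.1 RPKM of Hspb8, and at 249 ± 26.3 RPKM in WT against 104 ± 36.6 RPKM of Hspb8.

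**Figure D3:**
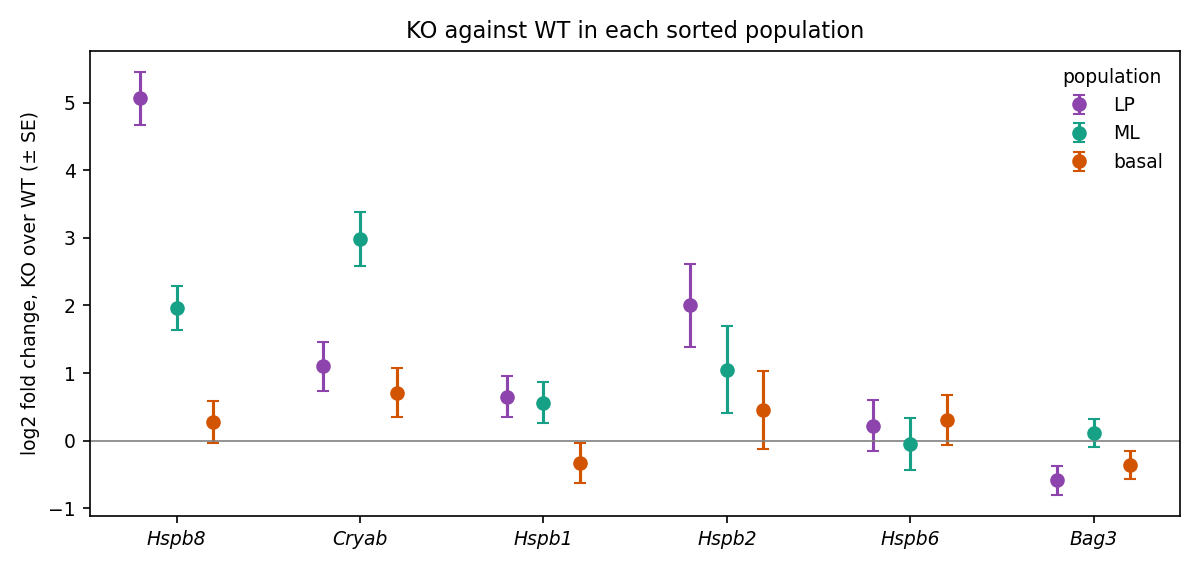
Fitted log2 fold change of KO over WT for each gene and each sorted population, with bars of 1 standard error. Hspb8 has 5.07 in LP, 1.96 in ML and 0.28 in the basal sort, and Cryab has its largest value, 2.98, in ML.

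Counted over the 6 genes in LP cells, 3 passed an adjusted p under 0.05 in edgeR, all higher in KO, and over all genes tested 13.2% passed, and 7.55% passed in that direction. Because that comparison was in view when the genes were chosen, nothing is read from the count. It rested on single libraries: without LP KO mouse 3, or without any 1 of the 3 LP WT mice, 1 gene passed, and likewise in a fit of the LP libraries alone, with the replicate number as a block, and with the mouse as a random block. In basal cells 0 of 6 passed, where 2.54% of all genes did, and 0 of 6 had an unadjusted p under 0.05. DESeq2 and limma voom also called 0. In ML cells 2 of 6 passed, Hspb8 and Cryab, both higher in KO, against 15.1% of all genes in either direction and 12.5% higher in KO, and this count did not depend on any 1 library. The median log2 fold change of the 6 genes was 0.87 in LP (all genes, 0.02), 0.80 in ML (0.02) and 0.29 in basal cells (-0.02). For the difference in KO effect between LP and basal cells, 1 of the 6 genes passed (1.02% of all genes). Between LP and ML 2 passed (6.93%), and between ML and basal cells 2 (6.1%). Each of these comparisons holds an LP or basal effect that was in view when the genes were chosen, so nothing is read from the counts. Each count of 2 fell to 1 with limma voom and on leaving out single libraries, ML KO mouse 1 among them.

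Levels were then compared between populations within a genotype, where each of the 5 genes other than Hspb8 was tested. Bag3 was the gene most clearly set by the population. It was lower in LP than in basal cells, with a log2 fold change of -2.24 in KO mice (adjusted p = 2.02e-07) and -2.02 in WT mice (adjusted p = 5.44e-07), and ML cells had less than basal cells, at -1.89 in KO mice (adjusted p = 2.21e-06) and -2.37 in WT mice (adjusted p = 5.57e-08), all by edgeR. LP and ML did not differ past the threshold in either genotype. These 4 calls held in each of the 14 alternatives run for each comparison.

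Hspb6 was lower in LP than in basal cells of KO mice (log2 fold change -1.33, adjusted p = 0.00804) and of WT mice (-1.24, adjusted p = 0.0166, edgeR). The WT call was lost without LP WT mouse 1 (adjusted p = 0.0553) or LP WT mouse 2 (0.0774). Hspb6 was also lower in ML than in basal cells of KO mice (-1.23, adjusted p = 0.0163), a call lost without basal KO mouse 3 (0.0587), ML KO mouse 2 (0.0607) or ML KO mouse 3 (0.0505). In WT mice the same difference (-0.87) had an adjusted p of 0.0615, and passed under RLE size factors (0.0443), DESeq2 (0.0197), limma voom (0.0332) and a fit with adjusted deviances (0.0399).

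Cryab had the opposite order in the luminal populations. It was higher in LP than in ML cells in KO mice (log2 fold change 1.73, adjusted p = 0.00412) and in WT mice (3.61, adjusted p = 2.83e-06, edgeR). ML KO and basal KO overlapped (-0.55, adjusted p = 0.253), a difference that passed without ML KO mouse 1 (-1.04, adjusted p = 0.0346), while ML WT was below basal WT (-2.81, adjusted p = 1.13e-05). LP KO was above basal KO (1.19, adjusted p = 0.0125), which did not hold without LP KO mouse 3 (adjusted p = 0.108) or basal KO mouse 1 (0.0673). In WT mice the LP and basal values (0.80, adjusted p = 0.0893) passed only without basal WT mouse 2 (0.0428).

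Between LP KO and ML KO the Hspb1 difference of 0.90 had an adjusted p of 0.0578 (edgeR), and 0.0369 with the mouse as a block. Hspb1 was lower in ML WT than in basal WT (-1.27, adjusted p = 0.00177). It was higher in LP WT than in ML WT (0.81, adjusted p = 0.0427), a call that was lost on leaving out any of the 3 LP WT mice or ML WT mouse 1 or 3, with adjusted p between 0.0501 and 0.152. Hspb2 passed in none of the 6 comparisons of populations in the edgeR fit. Between LP KO and ML KO (1.60, adjusted p = 0.0798) it passed in DESeq2 (0.0459), limma voom (0.0481) and a fit with adjusted deviances (0.0154), the last of which also called it between LP KO and basal KO (0.0198). Over all genes, 40.9% passed between LP KO and basal KO, 36.1% between LP WT and basal WT, 34.4% between ML KO and basal KO, 53.3% between ML WT and basal WT, 11.5% between LP KO and ML KO, and 34.0% between LP WT and ML WT.

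Other genes of the same pathway were listed to show what surrounded these values. Of 6 further genes listed with the small heat shock proteins, 3 passed the filter. Between KO and WT, 0 were called in any population by edgeR, DESeq2 or limma voom, with 0 at an unadjusted p under 0.05. Hspb9 and Cryaa were near the floor, with 26 and 28 counts summed over LP KO and 4 and 5 over LP WT. Tests at such counts can show little. Hspb11 was at 8.65 ± 3.24 CPM in LP KO and 5.84 ± 0.0717 CPM in LP WT. Hspb3, the partner of HSPB2 in muscle, had 0 counts in all 18 libraries. Of the 5 other BAG genes, 1 was called in LP, against 13.2% of all genes in either direction. It was Bag1, a nucleotide exchange factor of HSP70, which rose in LP KO (159 ± 56.7 CPM, against 82.0 ± 4.33 CPM in LP WT, adjusted p = 0.0107, edgeR). Its LP KO values were 126, 126 and 224 CPM in mice 1, 2 and 3, and its length lies in the class of 800 to 1400 bases described above. The part of transcript length in the Bag1 value was not tested. None of the 5 was called in ML or basal cells, where 0 had an unadjusted p under 0.05 and DESeq2 and limma voom called 0.

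Of 20 partners of chaperone-assisted selective autophagy, 1 rose and 2 fell in LP KO (edgeR), against 13.2% of all genes in either direction. Sqstm1, which encodes the p62 adaptor, fell to 779 ± 172 CPM in LP KO, against 1739 ± 439 CPM in LP WT (adjusted p = 0.0181). Flnc, the filamin of muscle, fell to 39.7 ± 32.6 CPM in LP KO, against 297 ± 311 CPM in LP WT (adjusted p = 0.0159), with a wide spread among the WT mice. Dnajb6, an HSP40 co-chaperone, rose (60.7 ± 8.80 CPM in LP KO, 40.1 ± 1.03 CPM in LP WT, adjusted p = 0.0396). In ML cells 5 of the 20 rose and 0 fell, against 12.5% of all genes higher in KO and 15.1% in either direction, while the median log2 fold change of the 20 was -0.05. Flna, the common filamin, was at 497 ± 70.4 CPM in ML KO and 141 ± 55.0 CPM in ML WT (adjusted p = 0.000696). Tns1, a tensin of focal adhesions, was at 9.77 ± 3.78 CPM in ML KO and 1.09 ± 0.262 CPM in ML WT (adjusted p = 0.000738). Synpo, a synaptopodin, was at 52.3 ± 3.30 CPM in ML KO and 23.1 ± 0.914 CPM in ML WT (adjusted p = 0.0193). Its call was lost without ML KO mouse 1 or any 1 of the 3 ML WT mice. Synpo2, a synaptopodin that binds BAG3, was at 1.36 ± 0.638 CPM in ML KO and 0.0556 ± 0.0963 CPM in ML WT (adjusted p = 0.00360), a call lost with the replicate number as a block (adjusted p = 0.0761). The basal markers that rose in ML KO, given above, moved with this group, and their part was not tested. In basal cells 0 of the 20 were called by edgeR, with 1 at an unadjusted p under 0.05, 1 called by DESeq2 and 0 by limma voom.

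Of 19 other chaperones regulated by HSF1, 1 rose and 3 fell in LP KO (edgeR), against 13.2% of all genes in either direction. In that comparison 8 of the 19 had an unadjusted p under 0.05, DESeq2 called 5 and limma voom 4, and the median log2 fold change was -0.11. Hspa1a, the inducible HSP70, fell to 797 ± 188 CPM in LP KO, against 2055 ± 647 CPM in LP WT (adjusted p = 0.0379). Its near-identical neighbour Hspa1b can share its reads, so this value is uncertain. Hsp90aa1, the inducible HSP90, fell to 517 ± 143 CPM in LP KO, against 1027 ± 16 CPM in LP WT (adjusted p = 0.0205). Hspa4, an HSP110-type exchange factor, fell to 207 ± 22.8 CPM in LP KO, against 386 ± 73.0 CPM in LP WT (adjusted p = 0.0379). Hspe1, the mitochondrial HSP10, rose (110 ± 26.5 CPM in LP KO, 60.1 ± 15.2 CPM in LP WT, adjusted p = 0.0323). In ML cells edgeR called 0 of the 19, with 4 at an unadjusted p under 0.05, 2 called by DESeq2 and 1 by limma voom. In basal cells it called 0, with 3 at an unadjusted p under 0.05, 1 called by DESeq2 and 0 by limma voom. Of 4 heat shock factors and their repressors, 1 was called in LP, where Hsbp1, which binds and restrains HSF1, was at 106 ± 30.9 CPM in KO and 57.2 ± 2.11 CPM in WT (adjusted p = 0.0120). Of 12 chaperones of the endoplasmic reticulum, Dnajb9 fell in LP KO (65.3 ± 10.6 CPM, against 138 ± 49.8 CPM in LP WT, adjusted p = 0.0279) and Dnajc3 in ML KO (221 ± 65.7 CPM, against 424 ± 51.3 CPM in ML WT, adjusted p = 0.0310). The Dnajc3 call was lost without ML KO mouse 1 and without ML WT mouse 1 or 2.

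These 10 calls in LP cells did not outlast the loss of a library: 0 of the 10 were left without LP KO mouse 3 (adjusted p 0.0537 to 0.136) and 0 in a fit of the LP libraries alone (0.0539 to 0.171). Without LP WT mouse 2, 3 were left, without LP WT mouse 1, 5, without LP KO mouse 1, 6, and with the replicate number as a block, 5. In the same LP libraries 8 genes that tissue dissociation induces, such as Fos and Jun, summed to 8157 to 10784 CPM in KO and 16052 to 41708 CPM in WT. Of the 8, 3 were called lower in KO (edgeR), against 13.2% of all genes in either direction. In ML cells they summed to 9217 to 9507 CPM in KO and 12688 to 14217 CPM in WT, with 1 of the 8, Dusp1, called higher in KO. The part of dissociation in the LP and ML values was not tested.

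**Figure D4:**
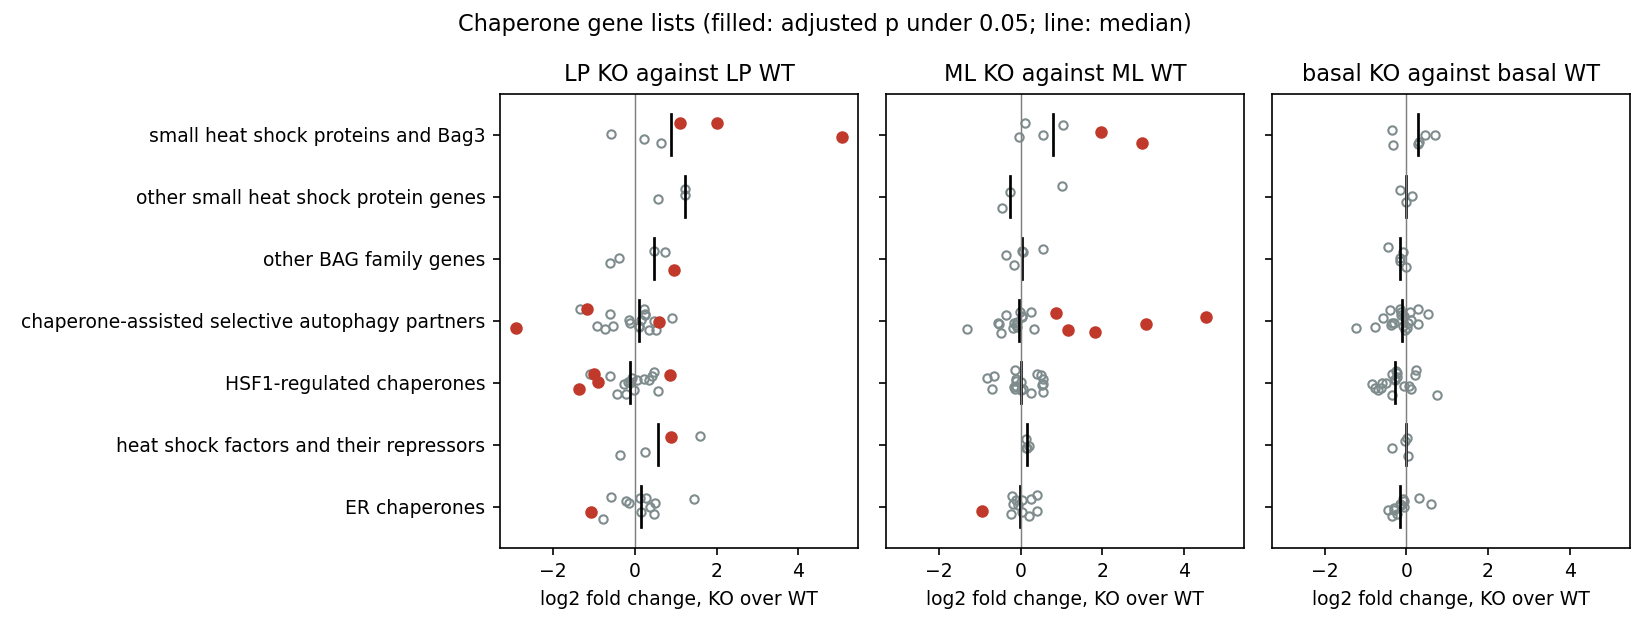
Log2 fold change of KO over WT for each tested gene of 7 chaperone lists, with 1 panel per population, filled points at an adjusted p under 0.05, and a line at each list's median. The top list holds the 6 genes chosen with the LP and basal comparisons in view, and the list of HSF1-regulated chaperones has a median of -0.11 in LP.

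Markers of other cells that could pass the gates were read first in LP cells, where 7.55% of all genes passed higher in KO. Skeletal muscle markers, 8 genes, summed to 10.2 to 24.1 CPM in LP KO and 4.93 to 10.7 CPM in LP WT, with Ckm, Myh4 and Tnnt3 at 0 in LP WT and Ckm at 0.0544 ± 0.0121 CPM in LP KO. Pericyte markers, 8 genes, summed to 97.2 to 226 CPM in LP KO and 211 to 273 CPM in LP WT. Most of that sum was Notch3 (170 ± 68.5 CPM in LP KO, 240 ± 31.7 CPM in LP WT), and 1 of the 8, Cspg4, was called higher in KO (1.09 ± 0.258 CPM in LP KO, 0.214 ± 0.108 CPM in LP WT, adjusted p = 0.0366, edgeR), a call lost in 12 of 15 alternatives, among them those without any 1 of the 6 LP libraries. Schwann cell markers, 6 genes, summed to 88.8 to 168 CPM in LP KO and 108 to 168 CPM in LP WT. Immune markers, 6 genes, were at 4.66 to 35.5 CPM in LP KO and 2.22 to 4.05 CPM in LP WT, with 2 of the 6 called higher in KO. These were Csf1r (4.74 ± 2.76 CPM in LP KO, 0.762 ± 0.508 CPM in LP WT, adjusted p = 0.00927, edgeR) and Itgam (0.370 ± 0.116 CPM in LP KO, 0.0204 ± 0.0354 CPM in LP WT, adjusted p = 0.0391, edgeR). The Csf1r call was lost without LP WT mouse 2 and in a fit of the LP libraries alone, and the Itgam call in 7 of 12 alternatives, among them those without LP KO mouse 1 or 3 or LP WT mouse 1 or 2. Fibroblast markers, 5 genes, were at 11 to 75.7 CPM in LP KO and 31.3 to 39.2 CPM in LP WT. Endothelial markers, 5 genes, were at 7.41 to 13.5 CPM in LP KO and 7.23 to 16.3 CPM in LP WT. Adipocyte markers, 5 genes, were at 0.461 to 0.834 CPM in LP KO, with Lep at 0, and at 0 to 0.245 CPM in LP WT, with Adipoq and Lep at 0. The immune and adipocyte sums did not overlap between the genotypes, the muscle sums overlapped only between 10.2 and 10.7 CPM, and their part in the Hspb8 value was not tested.

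In ML cells the same lists overlapped between the genotypes in their sums. Skeletal muscle markers summed to 6.10 to 18.1 CPM in ML KO and 5.86 to 9.59 CPM in ML WT, and pericyte markers to 174 to 250 CPM in ML KO and 172 to 320 CPM in ML WT. Schwann cell markers were at 91.2 to 123 CPM in ML KO and 70.1 to 136 CPM in ML WT, and endothelial markers at 6.43 to 9.85 CPM in ML KO and 6.59 to 9.03 CPM in ML WT. Fibroblast markers were at 75.2 to 364 CPM in ML KO and 41.2 to 270 CPM in ML WT. Immune markers were at 2.65 to 6.80 CPM in ML KO and 2.69 to 3.8 CPM in ML WT, and adipocyte markers at 0.198 to 0.386 CPM in ML KO and 0 to 1.84 CPM in ML WT. Single members were called higher in ML KO by edgeR, as were 12.5% of all genes. Of the pericyte list these were Cspg4 (2.13 ± 0.304 CPM in ML KO, 0.528 ± 0.390 CPM in ML WT, adjusted p = 0.0385) and Abcc9 (0.431 ± 0.379 CPM in ML KO, 0.0278 ± 0.0482 CPM in ML WT, adjusted p = 0.0396). Of the endothelial list it was Tek (2.20 ± 0.783 CPM in ML KO, 0.456 ± 0.256 CPM in ML WT, adjusted p = 0.0180), and of the Schwann cell list Prx (7.82 ± 2.20 CPM in ML KO, 3.45 ± 1.61 CPM in ML WT, adjusted p = 0.0365). The Cspg4 call was lost in 11 of 15 alternatives, which include leaving out any 1 ML library other than ML WT mouse 3. Likewise the Abcc9 call was lost in 6 of 12 (without ML KO mouse 2 or 3, ML WT mouse 1 or 3), the Tek call in 5 of 15 (without ML KO mouse 1, ML WT mouse 1 or 3) and the Prx call in 9 of 15 (without ML KO mouse 1 or 3, ML WT mouse 1 or 2). Their part in the ML values was not tested.

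Across the 18 libraries, which share 6 mice and differ in population and genotype, each gene was set beside every other tested gene with a mean of at least 2 CPM by the correlation of log2 CPM, as a description. Hspb8 was most like Nt5e, the ectonucleotidase CD73 (r = 0.949), Lgals9, which encodes galectin-9 (r = 0.922), and Dram1, a lysosomal membrane protein gene (r = 0.909). Bag3 was most like Hspa2 (r = 0.975), a testis-enriched HSP70, Brinp3 (r = 0.974) and Ext1 (r = 0.973). Cryab was most like Paqr6 (r = 0.958), Lbp (r = 0.955) and Adamts8 (r = 0.953). Hspb6 was most like Sema3d (r = 0.899), Lamc3 (r = 0.891) and the smooth muscle calponin Cnn1 (r = 0.887). Hspb1 was most like Npm3-ps1 (r = 0.918) and the ribosomal protein gene Rps3a1 (r = 0.909), and Hspb2 most like Rchy1 (r = 0.886) and Eif2b4 (r = 0.885). The third gene for Hspb1 and for Hspb2 had no symbol in the reference. Among the 6 genes, Hspb6 and Bag3 were the most alike (r = 0.79), followed by the overlapping neighbours Hspb2 and Cryab (r = 0.78), while Hspb8 had r = 0.45 with Bag3 and 0.16 with Cryab.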

How the data were processed

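RNA from sorted LP, ML and basal mammary cells of 3 KO and 3 WT mice was measured in 18 libraries (total RNA, TruSeq RNA v2, per the labels' protocols). The authors deposited raw read counts per Entrez gene, made with featureCounts on build mm10, per the submitters' processing notes. The aligner was not given in the sources used here. Each of the 18 single-library files was equal to its column of the table of all libraries, and 0 count columns had no sample. RefSeq symbols matched 25275 of the 27179 gene IDs, and 1904 had none.

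Genes were filtered with edgeR 4.0.16 (filterByExpr, 16466 genes kept), scaled by TMM (factors 0.832 to 1.19) and fitted in R 4.3.3 with 1 quasi-likelihood model over all 6 groups (12 residual degrees of freedom, biological coefficient of variation 33.3%). P-values were adjusted by Benjamini-Hochberg over all genes, with a threshold of 0.05. The fit was tested on simulated data first. Alternatives were RLE size factors, no filter, DESeq2 1.42.0, limma 3.58.1 voom, thinning to 5.97 M counts, the compared groups alone, each library left out, and replicate blocks. An edgeR fit with adjusted deviances and robust spread was added after seeing the data. Counting intervals were not used, since the replicate spread covers counting error.

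The 6 genes and the gene lists were chosen with earlier results of these data known. The genes therefore have no p-value in LP or basal KO against WT or between populations' KO effects, and Hspb8 has one only in ML. The text names the 6 genes, Trp53 and Brca2, up to 4 list genes of lowest p in a comparison, and the 3 most correlated genes for each of the 6. Marker genes are those of lists written for each cell type.

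Within a genotype, the same replicate number marks the same mouse, per the labels. Same-mouse libraries deviated together from their group means (r 0.0949 to 0.334, median 0.218, over 0.1 in 17 of 18 pairs). The same number in the other genotype marks no shared mouse (r -0.0977 to 0.258, over 0.1 in 5 of 27 pairs). Replicates are separate mice, and no 2 libraries agreed within sampling noise (chi-square per degree of freedom 22.6 to 204 over 18 pairs).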

Additional observations from a re-analysis of the deposited data

Results flagged for a closer look

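Interaction terms of the edgeR fit, which compare the KO effect between populations, flagged 2 of the 6 genes and are given as a description. For Hspb8 the log2 fold change of KO over WT was higher in LP than in basal cells by 4.79 (SE 0.48), higher in LP than in ML by 3.11 (SE 0.47), and higher in ML than in basal cells by 1.69 (SE 0.45). For Cryab it was lower in LP than in ML, with a difference of -1.88 (SE 0.52), and higher in ML than in basal cells by 2.27 (SE 0.52). Each difference holds an LP or basal effect that was in view when the genes were chosen, so no p is printed and nothing is read from a pass. Each was flagged because it was under the threshold with all libraries. That is a rule for listing and not evidence of a difference. Over all genes 1.02% passed for LP against basal, 6.93% for LP against ML and 6.1% for ML against basal. Over 20 alternatives the Hspb8 difference was 4.44 to 5.01 between LP and basal cells and 2.75 to 3.42 between LP and ML. Both hold the LP values for which Hspb8 was chosen. The Hspb8 difference between ML and basal cells did not pass in 6 of 20 (1.37 to 1.71), those without basal KO mouse 1 or 2, basal WT mouse 2, ML KO mouse 1, or ML WT mouse 2 or 3. The Cryab difference between LP and ML did not pass in 8 of 20 (-1.99 to -1.39), with limma voom and without LP KO mouse 1 or 2, LP WT mouse 1 or 2, ML KO mouse 1, or ML WT mouse 2 or 3. The Cryab difference between ML and basal cells did not pass in 1 of 20, limma voom (2.11). No group has more than 3 samples, so single outlying samples were not tested for.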

How the results depend on the processing

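Of 1129 values of the 6 genes recomputed under other settings, 1084 kept their direction and side of the threshold or, where no p is given, stayed within the replicate spread. Of the values with a p, 27 crossed the threshold and 9 changed sign; of those without, 9 moved beyond the spread. Of the values without a p, 14 changed sign, in 7 comparisons whose log2 differences were -0.22 to 0.39. With a p, for Hspb6 in ML KO against ML WT (-0.05) they were 0.06 with limma voom, 0.06 with the mouse as a random replicate block, and -0.28 to 0.12 on leaving out single libraries. For Hspb2 in LP WT against basal WT (-0.27) they were 0.37 after thinning and -0.52 to 0.03 on leaving out libraries. For Hspb6 in LP KO against ML KO (-0.10) they were 0.05 after thinning and -0.50 to 0.12 on leaving out libraries.

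Counts of the 6 genes called in LP KO against LP WT (3) went to 1 in a fit of the LP libraries alone, with the replicate block by number and with the random mouse block, and to 1 to 3 on leaving out libraries, while DESeq2 called 4 and limma voom 2. With limma voom, 1 gene and not 2 was called for LP against ML and for ML against basal KO effects, and 1 to 2 in each on leaving out libraries. Of the 5 genes other than Hspb8 in LP KO against ML KO (1), DESeq2, limma voom and adjusted deviances called 3, the mouse as a replicate block 2, and left-out libraries 1 to 2. Without Hspb8, which has no p between populations, the counts over the other 5 genes on leaving out libraries were 1 to 3 in LP WT against basal WT (2), 1 to 2 in LP WT against ML WT (2) and 1 to 3 in ML KO against basal KO (2).

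Over all genes, LP KO against LP WT (2178) had 688 in its own fit, 1233 with the replicate block by number and 830 to 2409 on leaving out libraries. Basal KO against basal WT (418) had 694 in DESeq2 and 222 to 416 on leaving out libraries. ML KO against ML WT (2491) had 1449 with the replicate block by number and 1654 to 2297 on leaving out libraries. The LP and basal KO effects differed in 168 genes, in 559 with DESeq2, 85 with limma voom, 437 with the mouse as a replicate block and 73 to 224 on leaving out libraries. The LP and ML effects differed in 1141 genes, and in 1727 with DESeq2 as with the mouse block. LP KO against ML KO (1891) had 959 to 2375 on leaving out libraries. The replicate block by number changed no call of a single gene among the 6 other than Hspb2 and Cryab in LP. The causes were not tested. Hspb2, with 16 counts summed over ML WT, is limited by depth.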
